A study of Mus musculus with 6 samples.

Results

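Satellite cells are the stem cells of skeletal muscle, and 9 genes that mark their identity or their quiescent state were followed here: Pax7, Pax3, Six4, Barx2, Calcr, Cxcr4, Chrdl2, Cdh15 and Vcam1. They were taken by symbol from the 54532 genes of the deposited tables, and each of the 9 was found once. The data are bulk RNA-seq of cultured primary myoblasts, collected at day 2 from hind-limb muscle of 3-week-old mice and grown in DMEM with 10% fetal bovine serum and FGF. WT cells gave 3 libraries and cells labelled eIF5A-KO gave another 3, called KO-labelled below. The knockout mice carried floxed eIF5A, made in the C57BL/6j background, with the Cre driver Pax7-CreERT2, and deletion was induced with tamoxifen. The study asked how eIF5A, a translation factor whose modified form is made from spermidine, acts in activated muscle stem cells, and the RNA-seq gives the mRNA levels beside its work on translation.

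The Cre driver sits at the Pax7 gene itself. Recombination is therefore limited to cells that express Pax7, and an allele of Pax7, the leading gene of this set, is modified in the knockout mice. The study describes the WT controls in one place as Pax7-CreERT2 carriers, naming no floxed allele, and in another as floxed mice without the Cre. For the myoblasts it says only that they were littermates. A difference in Pax7 RNA due to the driver allele cannot be told apart from one due to the loss of eIF5A if the WT cells lacked the driver. The labels do not say whether the libraries of a genotype came from separate mice, so that p-values measure the spread between these libraries.

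Pax7 and its paralog Pax3 are paired-box transcription factors that specify muscle progenitors, and Pax7 is needed for the maintenance of satellite cells after birth. Quiescent satellite cells are held in their niche by adhesion molecules such as M-cadherin, encoded by Cdh15, and by receptors such as the calcitonin receptor, encoded by Calcr. On activation the cells switch on MyoD, divide, and later lose Pax7 as they differentiate. Pax7 is kept in dividing myoblasts, whereas Calcr is known as a mark of quiescence that activated cells lose.

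Between 16281216 and 17734551 reads were counted on genes per library. Eif5a, the targeted gene, was at 1603, 986 and 1238 CPM (counts scaled to library size, here with TMM factors) in WT replicates 1 to 3 and at 1364, 1459 and 1059 CPM in the KO-labelled libraries, a log2 fold change of 0.02 (standard error 0.23, adjusted p = 0.993 in edgeR). The transcript of the targeted gene was thus not measurably lower, the counts do not separate its exons, and every direction below refers to the libraries by their labels. The mitochondrial share of counts was 5.75% in WT replicate 1 and from 2.11% to 3.50% in the other libraries. The myoblast markers Myod1, Myf5, Des, Itga7, Ncam1 and Chrna1 were present in every library, Myod1 at 196 to 550 CPM. Markers of other cell types were present as well. The endothelial gene Pecam1 was at 282 to 820 CPM and the fibroblast gene Pdgfra at 302 to 433 CPM. The glial gene Sox10 was at 28.6 to 72.7 CPM. Of the leukocyte markers, Cd68 was at 18.6 to 60.8 CPM and Lyz2 at 23.6 to 75.0 CPM. Ptprc did not exceed 2.55 CPM and Cd3e of T cells 0.0646 CPM. Markers of several cell types were thus measured together, and in bulk RNA fewer cells of a type cannot be told apart from less RNA per cell.

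Promoter windows are shown for 3 of the genes, because they stand for the range of responses below: Pax7 and Six4 had the lowest p-values and Cxcr4 had a log2 fold change close to 0. RefSeq windows from 250 bases before to 50 bases after an annotated start (build GRCm38.p6) were at hand for 5 of the 9 genes, in 7 windows. They are given 5′ to 3′ on the strand of the gene, at chr4:139832919-139833218 (minus strand) for Pax7, chr12:73113196-73113495 (minus strand) for Six4 and chr1:128592250-128592549 (minus strand) for Cxcr4. Capitals mark matches, on either strand, to any of the motifs TCAGGTTTC (the MEF3 element, a site that proteins such as Six4 bind), CAGCTG (an E-box, the kind of site that MyoD binds), CACCTG (an E-box as well), TATAAA (the core of a TATA box) and GGGCGG (the core of a GC box).
Pax7: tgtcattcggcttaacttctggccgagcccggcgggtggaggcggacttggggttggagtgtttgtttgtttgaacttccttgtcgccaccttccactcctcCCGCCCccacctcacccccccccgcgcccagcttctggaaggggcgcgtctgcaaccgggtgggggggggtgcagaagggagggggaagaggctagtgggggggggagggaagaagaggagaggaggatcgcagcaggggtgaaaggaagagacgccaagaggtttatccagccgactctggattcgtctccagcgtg
Six4: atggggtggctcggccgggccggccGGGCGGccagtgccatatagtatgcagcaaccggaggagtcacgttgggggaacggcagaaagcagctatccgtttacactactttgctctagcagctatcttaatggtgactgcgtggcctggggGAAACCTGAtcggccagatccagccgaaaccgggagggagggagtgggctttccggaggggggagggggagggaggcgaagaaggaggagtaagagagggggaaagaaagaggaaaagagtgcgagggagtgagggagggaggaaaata
Cxcr4: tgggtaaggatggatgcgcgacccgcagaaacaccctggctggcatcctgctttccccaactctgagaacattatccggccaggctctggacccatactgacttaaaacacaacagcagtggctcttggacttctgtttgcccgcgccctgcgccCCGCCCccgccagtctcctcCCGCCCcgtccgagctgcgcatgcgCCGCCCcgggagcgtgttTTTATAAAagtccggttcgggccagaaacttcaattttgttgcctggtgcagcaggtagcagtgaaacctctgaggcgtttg
The Six4 window held the MEF3 letters in the reverse orientation, as GAAACCTGA, starting 99 bases before the annotated start. Of 32817 such windows of mouse genes, 0.43% held a MEF3 match, and Six4 was the only one of the 5 genes with one. The window of a second annotated start of Six4, which lies upstream, held none. The Cxcr4 window held 2 overlapping TATA matches, starting 32 and 30 bases before the start, and 3 GC boxes. TATA matches were found in 13.6% of all windows and GC boxes in 35.6%. The Pax7 window held 1 GC box and no E-box of either kind, which 16.3% (CAGCTG) and 20.2% (CACCTG) of all windows held. A match describes the letters only, and no binding was measured.

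The expression filter left 5 of the 9 genes for testing with edgeR, among 14679 in all: Pax7, Six4, Cxcr4, Cdh15 and Vcam1. The other 4, Pax3, Barx2, Calcr and Chrdl2, had between 45 and 69 reads in all 6 libraries together and were below the filter. The count of genes with an adjusted p under 0.05 was 0 of the 5 tested in edgeR, where 0.0204% of all tested genes passed, and also 0 in DESeq2, where 0.6% passed, and 0 in limma-voom, where 0.0% of all tested genes passed. At an unadjusted p under 0.05 in edgeR, 2 of the 5 were lower in the KO-labelled libraries, Pax7 and Six4, where 4.02% of all tested genes were, and 0 were higher. By the criterion of the study, a change of more than 2-fold with an unadjusted p under 0.05, 1 of the 5 was lower, Pax7, where 1.32% of all tested genes were. All 5 log2 fold changes were below 0, as were those of 51.7% of all tested genes. Their median was -0.53, beside -0.01 over all tested genes.

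**Figure D1:**
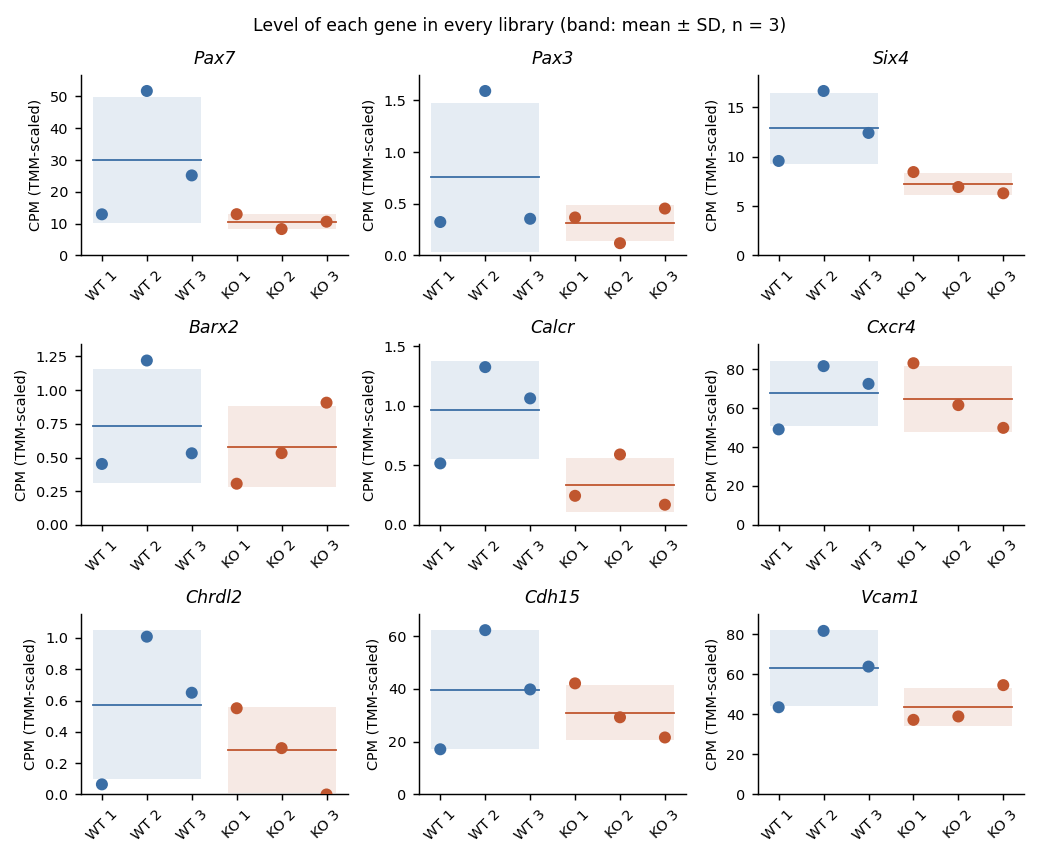
Level of each of the 9 genes in every library, in CPM scaled with TMM factors; points are libraries, lines and bands are the mean ± SD of the 3 libraries of a genotype, and each panel has its own axis from 0. Six4 is the one panel in which all 3 KO-labelled libraries (KO) lie below all 3 WT libraries, and in every panel WT replicate 2 is the highest and WT replicate 1 the lowest of the WT libraries.

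Pax7 (ENSMUSG00000028736) lies between 139737062 and 139833528 on the minus strand of chromosome 4, with at most 9 exons in a transcript. It was at 12.93, 51.7 and 25.2 CPM in WT replicates 1 to 3 and at 12.97, 8.29 and 10.6 CPM in the KO-labelled libraries. WT replicate 1 was as low as the highest KO-labelled library, so that the groups touched, while the other 2 WT libraries stood above them all. WT libraries averaged 29.9 ± 19.8 CPM (SD, n = 3), KO-labelled ones 10.6 ± 2.34 CPM (SD, n = 3). On the log2 scale the difference was -1.50 with a standard error of 0.43 (its 95% interval ran from -2.47 to -0.52), which is a level between 0.180 and 0.697 of that in WT. The unadjusted p was 0.0069 and the adjusted p 0.484 in edgeR. WT libraries differed among themselves by a factor of 4.0, and the KO-labelled ones by 1.56.

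The size and the call of the Pax7 difference rested on the WT libraries. Without WT replicate 1, the log2 fold change was -1.85 and the adjusted p 0.0276 in edgeR, where 0.375% of all tested genes passed, and without WT replicate 2 it was -0.84 with an adjusted p of 0.502, and no longer met the criterion of the study, which 1.21% of all tested genes then met in the lower direction. It was below 0 in all 17 alternatives that were run. Without the expression filter its adjusted p was 5.4e-07 in edgeR, among 26956 genes of which 0.924% passed. There the log2 fold change was -1.48 and the standard error 0.24, in place of 0.43 with the filter. The fit without the filter was not run on simulated counts, and the cause of its smaller standard error was not tested. DESeq2 gave an adjusted p of 0.0573 and limma-voom one of 0.619.

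Six4, a homeobox transcription factor of the sine oculis family, which acts on muscle genes through the MEF3 element, had 148, 314 and 210 reads in WT replicates 1 to 3 and 138, 117 and 111 in the KO-labelled libraries. In CPM these were 9.57, 16.7 and 12.4 against 8.44, 6.93 and 6.29, and all 3 KO-labelled libraries lay below the lowest WT library. The groups did not overlap downwards for 6.83% of all tested genes. Six4 (ENSMUSG00000034460) spans 73099609 to 73113456 of chromosome 12 (minus strand), in up to 3 exons. The difference on the log2 scale was -0.84 with a standard error of 0.26 (95% interval from -1.41 to -0.26, unadjusted p = 0.0091, adjusted p = 0.495 in edgeR). Leaving out WT replicate 1 moved it to -1.005, where it met the criterion of the study as did 1.9% of all tested genes in the lower direction, and leaving out WT replicate 2 moved it to -0.61.

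Pax3 (ENSMUSG00000004872, minus strand of chromosome 1, 78101267 to 78197134) was near the limit of detection in both genotypes. It had 5, 30 and 6 reads in WT replicates 1 to 3 and 6, 2 and 8 in the KO-labelled libraries, so that WT replicate 2 held 30 of its 57 reads. The other 5 libraries lay between 2 and 8 reads and did not separate by genotype. In a fit without the expression filter its log2 fold change was -1.26 (standard error 0.67, adjusted p = 0.814 in edgeR). No transcript of another gene aligned to that of Pax3 or of Pax7 with an identity of 90% or above across 200 or more bases, which held for each of the 9 genes, so that reads were not shared between the paralogs at that length.

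Barx2, a homeobox factor that is expressed with Pax7 in muscle progenitors, had 7, 23 and 9 reads in WT and 5, 9 and 16 in the KO-labelled libraries. The groups overlapped, with the highest and the lowest count in different genotypes. Without the filter, the log2 fold change was -0.33 (standard error 0.59, adjusted p = 0.915 in edgeR). Barx2 (ENSMUSG00000032033) spans 31846044 to 31913462 of chromosome 9 (minus strand).

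Calcr, whose receptor keeps satellite cells quiescent, was low in all libraries: 8, 25 and 18 reads in WT and 4, 10 and 3 in the KO-labelled ones, 51 against 17 reads in all. The KO-labelled library with 10 reads lay above WT replicate 1, and the other 2 lay below every WT library. These were 0.97 ± 0.41 CPM (SD, n = 3) against 0.34 ± 0.23 CPM (SD, n = 3). In the fit without the filter its log2 fold change was -1.51 (standard error 0.62, unadjusted p = 0.0141, adjusted p = 0.431 in edgeR). It met the criterion of the study there, as did 1.9% of the genes tested in that fit in the lower direction. Calcr (ENSMUSG00000023964) spans 3685680 to 3764714 of chromosome 6 (minus strand) and contains the microRNA genes Mir653 and Mir489, on which no read was counted.

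Cxcr4, the receptor for the chemokine Cxcl12, was the most abundant of the 9 genes per length and the one whose level moved least. It was at 49.1, 81.5 and 72.4 CPM in WT and at 83.0, 61.5 and 49.8 CPM in the KO-labelled libraries, in overlapping ranges. The difference was -0.06 on the log2 scale (95% interval from -0.62 to 0.50, adjusted p = 0.983 in edgeR), an interval that leaves a level between 0.649 and 1.41 of that in WT, and it became 0.09 without WT replicate 2 or without KO-labelled replicate 3. Cxcr4 (ENSMUSG00000045382) spans 128588199 to 128592293 of chromosome 1 (minus strand), in up to 2 exons. Endothelial cells and leukocytes also make this receptor, and its share from each cell type was not measured.

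Chrdl2, a secreted protein of the chordin family that binds BMPs, was the scarcest by reads. It had 1, 19 and 11 reads in WT and 9, 5 and 0 in the KO-labelled libraries, and neither genotype stood apart. The count of 0 in replicate 3 allows a level of up to 0.170 CPM (3 reads, counting error only). Without the filter its log2 fold change was -1.03 (standard error 0.73, adjusted p = 0.814 in edgeR). Chrdl2 (ENSMUSG00000030732) spans 100006172 to 100034728 of chromosome 7 (plus strand).

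Cdh15, which encodes M-cadherin, the adhesion molecule between satellite cell and myofibre, was at 17.1, 62.3 and 39.8 CPM in WT and at 42.1, 29.2 and 21.6 CPM in the KO-labelled libraries. All 3 KO-labelled libraries lay within the WT range. On the log2 scale they differed by -0.36 (95% interval from -1.29 to 0.57, adjusted p = 0.940 in edgeR). It moved to -0.72 without WT replicate 1 and to 0.12 without WT replicate 2, so that its direction rested on WT replicate 2. Cdh15 (ENSMUSG00000031962) spans 122847966 to 122867397 of chromosome 8 (plus strand), in 14 exons, and the annotated gene Gm20388 on the same strand, with 0 reads in each library, overlaps it.

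Vcam1, the adhesion molecule that binds the integrin of Itga4 and Itgb1, was at 43.6, 81.7 and 63.8 CPM in WT and at 37.3, 39.0 and 54.6 CPM in the KO-labelled libraries. KO-labelled replicates 1 and 2 lay below every WT library, and replicate 3 lay between WT replicates 1 and 3. The log2 difference, -0.53, had a standard error of 0.26 and a 95% interval from -1.11 to 0.04 (unadjusted p = 0.0661, adjusted p = 0.791 in edgeR). It was -0.73 without WT replicate 1 and -0.30 without WT replicate 2. Vcam1 (ENSMUSG00000027962) spans 116109949 to 116129688 of chromosome 3 (minus strand), and endothelial cells and fibroblasts also express it.

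**Figure D2:**
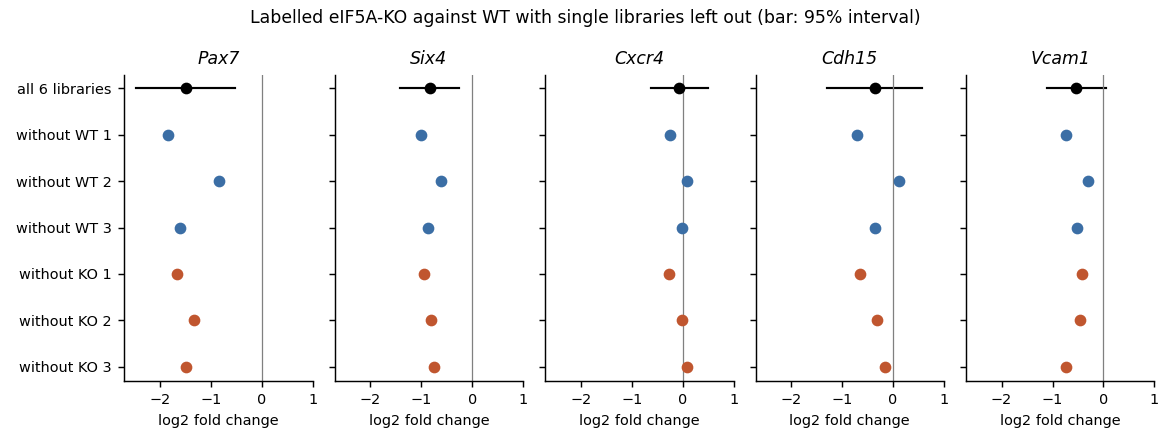
Log2 fold change of the 5 tested genes, KO-labelled over WT, from edgeR with all 6 libraries (black, with its 95% confidence interval) and with each library left out (blue for WT, red for KO-labelled). Pax7, Six4 and Vcam1 stay below 0 in every fit, whereas Cdh15 reaches 0.12 and Cxcr4 0.09.

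The WT libraries were ordered in the same way for each gene. WT replicate 2 was the highest and WT replicate 1 the lowest of the WT libraries for 9 of 9 genes. This held for 5 of the 5 tested genes, an order that 28.3% of all tested genes had. The summed level of 8 myoblast markers, which include Pax7 and Cdh15, had that order too, at 697, 1775 and 1248 CPM in WT replicates 1 to 3, beside 1206, 863 and 642 CPM in the KO-labelled libraries. Of these 8 markers, 7 had a log2 fold change below 0, as did 51.7% of all tested genes. Their median was -0.47, beside -0.01 over all tested genes. Des was at -0.02, and Myf5, at 0.13, was the 1 above 0. Chrna1, the acetylcholine receptor subunit gene, was at 85.3, 224 and 148 CPM in WT and at 74.9, 43.8 and 29.9 CPM in the KO-labelled libraries, without overlap (log2 fold change -1.62, adjusted p = 0.396 in edgeR). Myod1 differed by -0.61 on the log2 scale (adjusted p = 0.794 in edgeR). The WT library with the lowest levels of these genes was also the one with the highest mitochondrial share, and its endothelial markers summed to 1253 CPM against 2181 to 3222 CPM in the other 5 libraries. The part of these differences in the results was not tested beyond leaving the library out.

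Per gene length, the order of the 9 genes by their means was the same in both genotypes. In FPKM (fragments scaled to gene length and sequencing depth, as deposited by the authors), Cxcr4 came first with 37.0 ± 9.25 (SD, n = 3) in WT and 35.6 ± 9.16 (SD, n = 3) in the KO-labelled libraries. Cdh15 followed with 12.1 ± 6.88 and 9.46 ± 3.14, Vcam1 with 7.03 ± 2.14 and 4.89 ± 1.08, and Pax7 with 5.05 ± 3.35 and 1.80 ± 0.39 FPKM. Six4 was at 1.17 ± 0.33 and 0.66 ± 0.10 FPKM. Each of these 5 was higher than the next in 6 of 6 libraries, although the WT ranges of Cdh15 and Vcam1, and of Vcam1 and Pax7, overlapped. Barx2, Calcr, Chrdl2 and Pax3, in this order, had means under 0.4 FPKM, and neighbours among these 4 overlapped in WT.

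**Figure D3:**
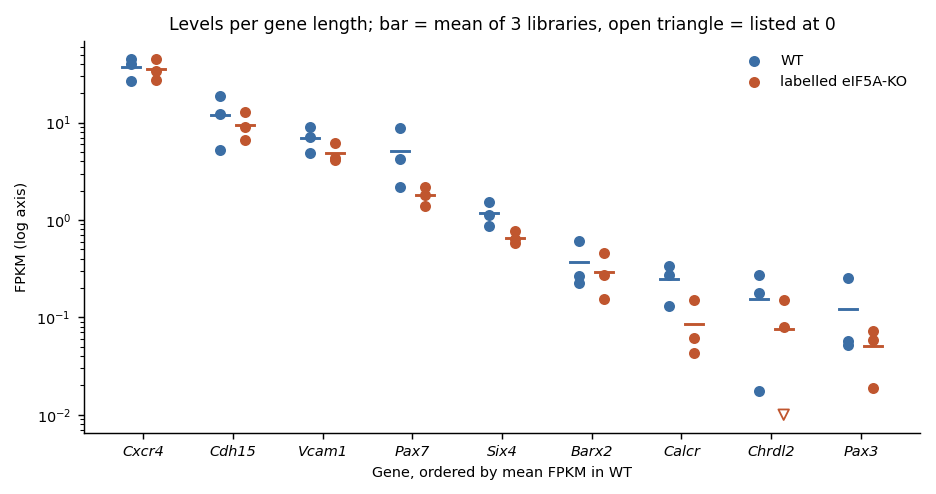
FPKM of the 9 genes on a log axis, ordered by their WT mean; points are libraries, bars are means of 3 libraries, and the open triangle marks a value listed at 0. Cxcr4 has a mean of 37.0 FPKM in WT and Pax3 one of 0.12, and the means of the KO-labelled libraries give the same order of genes.

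Ratios within a library do not depend on how libraries are scaled. They compare Pax7 with other genes in the same mixed RNA, and the genes in the denominator may also come from other cell types. For every 1000 reads of Cdh15 there were 755, 830 and 632 reads of Pax7 in WT replicates 1 to 3 and 308, 283 and 491 in the KO-labelled libraries. The groups did not overlap. Relative to 1000 reads of Des, which encodes the muscle intermediate filament desmin, Pax7 had 65.7, 120 and 81.1 reads in WT and 29.5, 28.0 and 56.2 in the KO-labelled libraries, again without overlap. Relative to Cxcr4 the groups also did not overlap. They overlapped relative to Vcam1, Six4, Myod1 and Myf5. Per 1000 Myod1 reads there were 49.0, 94.0 and 57.6 Pax7 reads in WT and 37.1, 30.4 and 54.2 in the KO-labelled libraries.

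Six4 was lower without overlap relative to Cxcr4, Myf5 and Des, and overlapped relative to Cdh15, Vcam1 and Myod1. Per 1000 Cxcr4 reads, Six4 had 195, 204 and 171 reads in WT and 102, 113 and 126 in the KO-labelled libraries. Per 1000 Myod1 reads the values lay close together, at 36.3, 30.3 and 28.4 in WT and 24.2, 25.4 and 32.2 in the KO-labelled libraries. For the 6 of 13 ratios without overlap the exact two-sided permutation test of the log2 ratios gave p = 0.1, the smallest that 3 libraries against 3 allow, and an adjusted p of 0.217 over the 13 ratios. The ratios were chosen after the levels had been seen, with the genes of lowest p-value in the set, Pax7 and Six4, as numerators. They thus restate in part the differences given above. The share of other gene pairs without overlap was not computed.

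**Figure D4:**
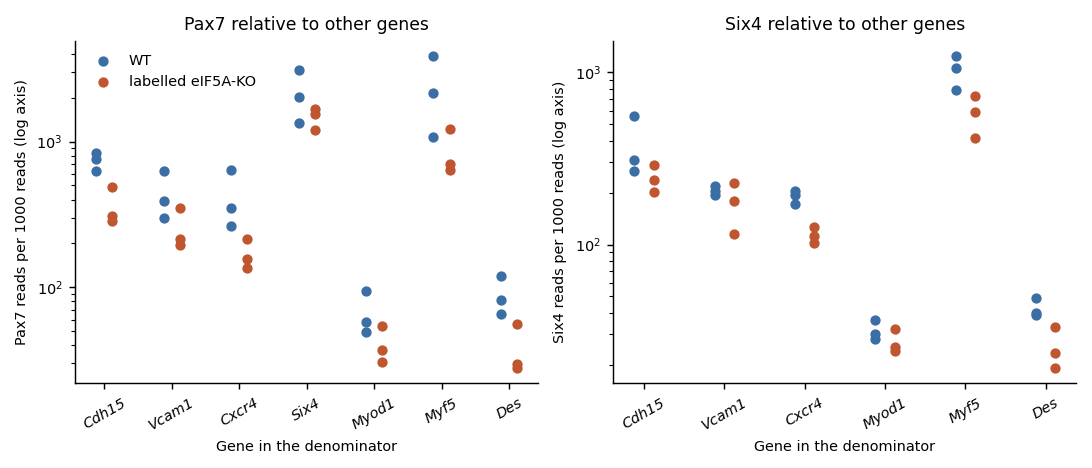
Reads of Pax7 (left) and of Six4 (right) per 1000 reads of the gene named on the horizontal axis, in each library, on log axes. Relative to Cdh15, Pax7 lies between 632 and 830 in WT and between 283 and 491 in the KO-labelled libraries, while relative to Myod1 the genotypes overlap.

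The partners of Six4 had values on both sides of 0. Six4 acts with Eya coactivators, and 11 of 13 genes of a list of its relatives, Eya, Dach and Pax7 cofactor genes were tested. At an unadjusted p under 0.05, 1 of the 11 was lower, Eya4, and 0 were higher, where 4.02% and 2.74% of all tested genes were. Eya4 also met the criterion of the study, which 1.32% of all tested genes met in the lower direction. It missed the 2-fold limit without WT replicate 2 (-0.82 on the log2 scale) and, narrowly, without KO-labelled replicate 2 (-0.995), as it did with limma on log2(FPKM + 0.1) at -0.82 and on log2(FPKM + 1) at -0.29. At an adjusted p under 0.05 the count was 0 in edgeR, DESeq2 and limma-voom. Eya4 was at 3.43, 7.11 and 5.14 CPM in WT and at 2.39, 2.07 and 2.83 CPM in the KO-labelled libraries, without overlap, with -1.10 on the log2 scale (adjusted p = 0.495 in edgeR). The other Eya genes had log2 fold changes of 0.44 (Eya1), 0.43 (Eya2) and 0.05 (Eya3), with overlapping libraries. That of Eya1 was 0.034 without WT replicate 1 and 1.25 without WT replicate 2 (adjusted p = 0.488 in edgeR), where it met the criterion of the study. Six2, a relative of Six4, differed by -0.47 on the log2 scale (adjusted p = 0.910 in edgeR), also with overlapping libraries. Over the list the median was -0.02.

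Ligands and co-receptors gave values of either sign as well. Among 14 tested genes of 16, 2 were lower and 2 higher at an unadjusted p under 0.05, where 4.02% and 2.74% of all tested genes were, and 0 at an adjusted p in edgeR, DESeq2 or limma-voom. Cxcl12, the ligand of Cxcr4, was at 205 to 296 CPM in WT and 221 to 246 CPM in the KO-labelled libraries, a log2 fold change of -0.04. Ackr3, the second receptor of Cxcl12, which scavenges it, was at 72.8, 90.6 and 69.3 CPM in WT and at 60.4, 60.3 and 51.9 CPM in the KO-labelled libraries, without overlap, a log2 fold change of -0.43 (unadjusted p = 0.0355, adjusted p = 0.683 in edgeR). Collagen V is a ligand of the calcitonin receptor in the satellite cell niche. Its chain gene Col5a2 was at 239, 374 and 274 CPM in WT and at 413, 444 and 440 CPM in the KO-labelled libraries, without overlap, 0.55 higher on the log2 scale (adjusted p = 0.616 in edgeR), and Col5a1 had a log2 fold change of 0.44 with overlapping libraries. Ramp3, which modifies the specificity of calcitonin-type receptors, was at 5.56, 4.24 and 4.78 CPM in WT and at 8.75, 8.23 and 7.71 CPM in the KO-labelled libraries, which is 0.76 on the log2 scale (adjusted p = 0.493 in edgeR). Ramp1 and Ramp2 had log2 fold changes of 0.80 and 0.38 with overlapping libraries.

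Chrdl2 belongs to the extracellular BMP antagonists. The list made around it holds other antagonists, BMP ligands, receptors, Smad genes and the target genes Id1 and Id3, and 16 of its 17 genes were tested. At an unadjusted p under 0.05, 3 of the 16 were higher in the KO-labelled libraries and 0 lower, where 2.74% and 4.02% of all tested genes were. Grem1, an antagonist of BMPs, was at 11.1, 5.30 and 6.32 CPM in WT and at 24.0, 16.8 and 14.5 CPM in the KO-labelled libraries, a log2 fold change of 1.29 (standard error 0.31, adjusted p = 0.396 in edgeR, 0.0220 in DESeq2), and was the gene of this list that met the criterion of the study, as did 0.531% of all tested genes in the higher direction. With limma on log2(FPKM + 1) Grem1 was at 0.96 on the log2 scale, short of the 2-fold limit. The ligand genes Bmp4 and Bmp7 had log2 fold changes of 0.55 and 0.90 (adjusted p = 0.520 and 0.596 in edgeR). In all 3 the groups did not overlap. Over the list this was so upwards for 4 of the 16 and downwards for 1, where 5.68% and 6.83% of all tested genes were. The median over the list was 0.15.

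Of the genes that act with Cdh15 and Vcam1 in adhesion, 13 of 14 were tested. At an unadjusted p under 0.05, 1 of the 13 was higher and 0 were lower, where 2.74% and 4.02% of all tested genes were. This was Cdh11, a mesenchymal cadherin, with 0.56 on the log2 scale (adjusted p = 0.714 in edgeR) and overlapping libraries. Ctnnb1, the catenin that binds the tail of cadherins, was at 548 to 735 CPM in WT and 505 to 686 CPM in the KO-labelled libraries, a log2 fold change of -0.13. Of the integrin genes for Vcam1, Itgb1 was at 774 to 1069 CPM over the 6 libraries. Itga4 was at 0.26 to 1.48 CPM. Their log2 fold changes were 0.03 and -0.43. Itgb7 and Icam1 had log2 fold changes of 0.46 and 0.36. The median over the list was 0.15, and 0 genes passed an adjusted p in edgeR, DESeq2 or limma-voom.

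A wider list of 35 satellite cell genes had members that were lower and members that were higher. All 35 were tested, 17 had a log2 fold change below 0 and 18 above, and the median was 0.01. At an unadjusted p under 0.05, 3 of the 35 were lower and 4 higher, where 4.02% and 2.74% of all tested genes were. The criterion of the study was met by 2 in each direction, as it was by 1.32% (lower) and 0.531% (higher) of all tested genes. Met, the receptor of hepatocyte growth factor, which signals activation, was at 43.2, 80.0 and 54.8 CPM in WT and at 24.9, 26.8 and 29.5 CPM in the KO-labelled libraries, without overlap, a log2 fold change of -1.13 (standard error 0.24, adjusted p = 0.331 in edgeR, 0.0059 in DESeq2), which was -0.86 without WT replicate 2 and then missed the 2-fold limit. Sox8, a transcription factor of the SOX family, was at 2.07, 13.1 and 8.09 CPM in WT and at 1.84, 1.18 and 1.13 CPM, also without overlap, which is -2.49 on the log2 scale (adjusted p = 0.379 in edgeR, 0.0026 in DESeq2). Sox8 was at -1.88 without WT replicate 2 and at -1.12 with limma on log2(FPKM + 1). In the latter fit Met was at -0.91, again short of the 2-fold limit.

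The genes of that list that were higher included Hes1, a Notch target. It was at 31.0, 52.3 and 49.97 CPM in WT and at 177, 86.1 and 69.0 CPM in the KO-labelled libraries, without overlap, a log2 fold change of 1.32 (standard error 0.35, adjusted p = 0.407 in edgeR, 0.0382 in DESeq2). Gpx3, a secreted glutathione peroxidase, was at 358, 256 and 273 CPM in WT and at 954, 750 and 266 CPM in the KO-labelled libraries, so that replicate 3 lay within the WT range (log2 fold change 1.15, adjusted p = 0.560 in edgeR). Without KO-labelled replicate 1 the log2 fold changes of Hes1 and Gpx3 were 0.81 and 0.79, and neither met the criterion of the study. Gpx3 also missed it without WT replicate 3 (unadjusted p = 0.0512 in edgeR) and, at 0.98 on the log2 scale, in limma-voom and in limma on FPKM. Myf5, the myogenic factor that is present with Pax7 in satellite cells, was at 12.1, 13.4 and 11.6 CPM in WT and at 20.3, 11.7 and 8.62 CPM in the KO-labelled libraries, a log2 fold change of 0.13 that became -0.28 without KO-labelled replicate 1. Hes1 and Gpx3 are not limited to muscle stem cells, and which cells carried them was not measured.

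**Figure D5:**
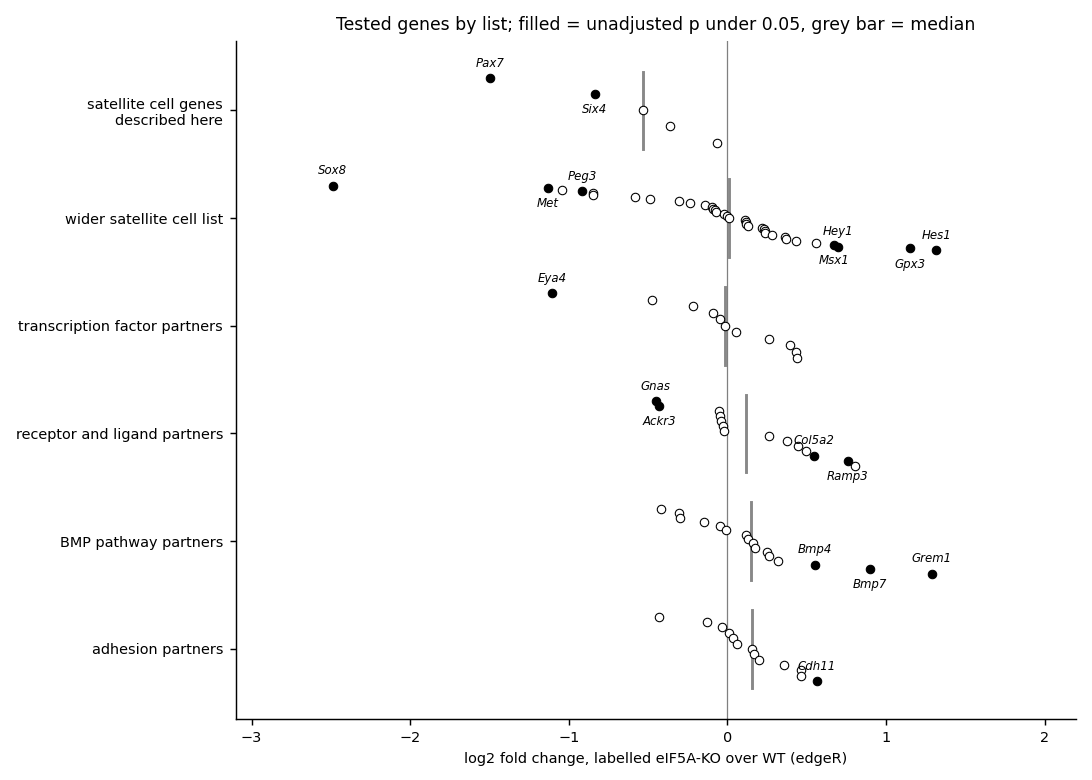
Log2 fold change, KO-labelled over WT, of every tested gene in the set of satellite cell genes and in the 5 lists of related genes; filled and named points have an unadjusted p under 0.05 in edgeR, and grey bars are medians. Eya4 (-1.10) lies to the left with Pax7 and Six4, and the genes named in the BMP list lie to the right.

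Markers of other cell types moved with the genotype in part. Mural cell markers summed to 371 to 629 CPM in WT and 723 to 785 CPM in the KO-labelled libraries, with 8 of 8 genes higher in log2 fold change, and glial markers to 186 to 263 and 303 to 338 CPM, with 5 of 5 higher; neither pair of ranges overlapped. Over all tested genes, 48.3% had a log2 fold change above 0. Of the 8 mural markers, 4 were higher at an unadjusted p under 0.05, where 2.74% of all tested genes were, and Myh11, the smooth muscle myosin heavy chain, was 1 of the 3 genes with an adjusted p under 0.05 in edgeR among 14679. It was at 10.5, 11.0 and 10.5 CPM in WT and at 29.2, 28.3 and 34.2 CPM in the KO-labelled libraries (log2 fold change 1.52, adjusted p = 0.0486 in edgeR). The value ranged from 1.43 to 1.58 with single libraries left out, but the adjusted p was under 0.05 only without WT replicate 1 among these fits, and was 0.0977 in limma-voom and 3.7e-10 in DESeq2. Endothelial markers summed to 1253 to 2550 and 2181 to 3222 CPM, with 8 of 8 higher, fibroblast markers to 2410 to 3206 and 2293 to 2893 CPM, with 2 of 8 tested genes higher, and leukocyte markers to 51.3 to 119 and 53.0 to 146 CPM, with 4 of 6 tested genes higher. Their part in the values of Pax7, Six4 and their partners was not tested.

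The genes whose pattern over the 6 libraries was most like that of Pax7 were sought among 11037 others with a mean of at least 5 CPM. Likeness was the root mean square difference of log2 CPM after each gene was centred on its own mean. The nearest were Cobl (0.18), Pnmal2 (0.19), Ttn (0.20), Nup210 (0.23) and Cdon (0.23). Ttn encodes titin, the giant protein of the sarcomere, and Cdon a surface receptor that promotes myogenic differentiation. Cdon was at 56.6, 183 and 81.3 CPM in WT and at 49.9, 45.5 and 38.4 CPM in the KO-labelled libraries. WT replicate 2 stood far above the rest, as follows from the choice of Cdon by likeness to Pax7. Of the set of 9 genes, Six4, Vcam1, Cdh15 and Cxcr4 reached this level beside Pax7. Six4 was at 0.44, in place 49 of 11037, and Cxcr4 at 0.73, in place 940.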

How the data were processed

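Total RNA of primary myoblasts was extracted with TRIzol and sequenced from NEBNext Ultra libraries, and the authors mapped the reads to mm10 with HISAT. They deposited raw read counts per gene, for which the methods name DEGSeq2, and a table of FPKM. The denominators of the deposited FPKM values equalled the median-of-ratios size factor times the geometric mean of the count totals in all 6 libraries. HISAT version and annotation release are not given in the sources used here. Gene coordinates are those of the deposited tables and equalled GENCODE M21 (GRCm38) for 9 of 9 genes.

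Counts were tested with edgeR 4.0.16 in R 4.3.3: filterByExpr, TMM factors, glmQLFit with a prior count of 0.125, the quasi-likelihood F test and Benjamini-Hochberg adjustment over 14679 genes. The threshold was an adjusted p under 0.05, and the criterion of the study (a change over 2-fold, unadjusted p under 0.05) was a second rule. No covariate was used. Alternatives were other scalings, other filters, DESeq2 1.42.0, limma 3.58.1 on voom values, log2(FPKM + 1) or log2(FPKM + 0.1), a replicate block and each library left out. Tested on simulated counts of 14679 genes, edgeR called 88 of 103 genes with a simulated log2 change of 2, 38 of 97 with one of 1 and 11 unchanged genes. Transcript copies were searched with blastn 2.17.0.

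The genes and lists were chosen with earlier results of these data known. Named were all 9 genes, in each list of related genes the 3 with the smallest p and those past either rule, direct ligands and cofactors, and the 5 genes most like Pax7. Motifs, ratios and the cell type markers given singly (among them Chrna1, Myh11, Cd68, Lyz2 and Ptprc) were chosen after the data had been seen. Without molecular identifiers, a limit derived from reads accounts for counting error only. Some genes of the lists are not reported here and were left out of the list counts.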

Additional observations from a re-analysis of the deposited data

How the results depend on the processing

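Over 17 alternatives for each of the 5 tested genes, 80 of 85 fits kept the direction and the side of the adjusted threshold, 2 passed it and 3 changed direction. The number of the 9 genes with an adjusted p under 0.05, 0 in the reported fit, was 1 (Pax7) without the expression filter, and from 0 to 1 with each library left out. The number past the criterion of the study, 1 in the reported fit, was 2 without the filter (Pax7 and Calcr), 0 with limma on log2(FPKM + 1), and from 0 (without WT replicate 2) to 2 (without WT replicate 1) with libraries left out. Among the related lists together, 0 genes passed the adjusted threshold, where 0.0204% of all tested genes passed. Their number was 7 without the filter (0.924% of all tested genes) and 4 with DESeq2 (0.6%). With libraries left out it was 0 to 4, the highest without WT replicate 1 (0.375% of all tested genes). Past the criterion of the study, 3 genes were lower and 3 higher; without the filter 6 were lower, with limma on log2(FPKM + 1) 1 was lower and 1 higher, and with libraries left out 1 (without WT replicate 2) to 7 (without WT replicate 1) were lower and 1 (without replicate 1 of the KO-labelled libraries) to 6 (without WT replicate 2) higher. Of all tested genes, 1.9% were lower by this criterion without the filter, 1.9% without WT replicate 1 and 1.21% without WT replicate 2. In the higher direction the share was 0.531% in the reported fit. It is not given for the other fits, so those higher counts lack a share to compare. A smaller change on the log2(FPKM + 1) scale follows from its pseudocount; the cause of the other shifts was not tested.

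With libraries left out the direction turned for Cxcr4 (-0.28 to 0.095, and 0.093 without WT replicate 2), Cdh15 (-0.72 to 0.12), Eif5a (-0.13 to 0.22), Myf5 (-0.28 to 0.37), Cxcl12 (-0.14 to 0.13), Itga4 (-0.83 to 0.28), Itgb1 (-0.10 to 0.14) and Eya3 (-0.087 to 0.18), each in log2 fold change. Without WT replicate 1, the 4 genes past the adjusted threshold were Met, Sox8, Grem1 and Fgfr4. Fgfr4, named after its values were seen, had a log2 fold change of -1.04 with all libraries, with overlapping groups, an unadjusted p of 0.084 and an adjusted p of 0.809 in edgeR. The replicate numbers share no stated source, and deviations of same-numbered libraries correlated at 0.10, -0.22 and 0.11. With the number as a replicate block, Pax7 had a log2 fold change of -1.30 and an adjusted p of 0.328 in edgeR, 0 of the 5 tested genes passed the adjusted threshold and 1 the criterion of the study. The related genes higher by that criterion fell from 3 to 2 with the block, where Gpx3 was at 0.99, and with limma-voom. For Pax3, Barx2 and Chrdl2, with 45 to 69 reads in all, no difference between genotypes passed either rule in the fit without the filter.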
